A study of Mus musculus with 20 samples.

Results

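Muscle that overexpressed PGC-1alpha was compared with wild-type muscle on 10 of the 20 arrays of the series, the 5 named Muscle_PGC-1alpha-mTg and the 5 named Muscle_WT. Both groups were gastrocnemius samples from adult male C57BL/6 mice. The WT group was wild type. The PGC-1alpha-mTg group carried a muscle-specific transgene for the coactivator PGC-1alpha, and no further allele, agent or treatment is named for either group. The promoter that drives the transgene, the founder line and the age in weeks are not given in the sources used here. Each array had been hybridised with cDNA made from 250 ng of total RNA and read on Affymetrix mouse Gene 1.0 ST arrays, whose probes lie along the whole transcript. The values were log2 RMA levels, so a difference of 1 is a 2-fold difference. After probe sets with no symbol or several were set aside and the brightest probe set of each gene was kept, 19938 genes were tested from 35556 probe sets. The comparison asks which transcripts of a mixed limb muscle differ when PGC-1alpha is raised in it.

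PGC-1alpha, encoded by Ppargc1a, binds no DNA itself. It is recruited by transcription factors, among them the oestrogen-related receptors (ERR), the PPARs and the nuclear respiratory factors, and recruits enzymes that open chromatin. It is best known for driving mitochondrial biogenesis in brown fat, heart and muscle, and endurance exercise raises it in muscle. The gastrocnemius of the mouse is a calf muscle made largely of fast glycolytic fibres, with few slow fibres, and a whole-muscle sample also holds vessels, nerve, connective tissue and satellite cells. In such a bulk sample a smaller number of cells of a type and less RNA per cell cannot be told apart.

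Arrays of the same group correlated at r = 0.997 to 0.998 in WT and 0.992 to 0.998 in PGC-1alpha-mTg, and arrays of different groups at 0.988 to 0.993. The median SD of a gene was 0.0775 on the log2 scale in WT and 0.105 in PGC-1alpha-mTg arrays. The array that stood farthest from its own group was PGC-1alpha-mTg 5, with a mean correlation of 0.994 and an array weight of 0.367. The 12 markers of skeletal muscle fibres read 12.42 to 13.45 on average in WT and 12.34 to 13.38 in PGC-1alpha-mTg, so the labelled tissue was borne out in both. Of those 12, 1 was higher and 5 were lower, at a median of -0.08. The lower count was 3 when WT 4, WT 5, PGC-1alpha-mTg 2 or PGC-1alpha-mTg 3 was left out. No level of background is given for the arrays, and their precision rests on the 5 arrays per group.

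In all, 4967 genes (24.9%) differed between the groups at a limma adjusted p under 0.05, 2104 of them higher (10.6%) and 2863 lower (14.4%) in PGC-1alpha-mTg. Most changes were small. The median change was 0.32 among the genes called higher and -0.28 among those called lower. Only 50 genes (0.251%) rose and 46 (0.231%) fell by 2-fold or more. The 5 transgenic arrays all lay above the 5 WT arrays for 1738 of all genes tested (8.72%), called or not, and all below them for 2237 (11.2%). The number called ran from 4216 without WT 3 to 6147 without PGC-1alpha-mTg 5. These shares, and the median change of 0.02 over all genes, are the background against which the gene lists below are read. Dim genes are seldom called. Without the dimmest 40 percent, 1987 of 11963 genes were higher and 3007 lower, at a median of -0.02. For lists of brighter genes that is the nearer background. Whether every array stands for a separate mouse is not stated in the labels, and p-values then measure only the spread between the samples, part of which may be technical. Changes are log2 fold changes of PGC-1alpha-mTg over WT ± SE with n = 5 per group, and rose and fell are kept for genes with an adjusted p under 0.05.

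**Figure D1:**
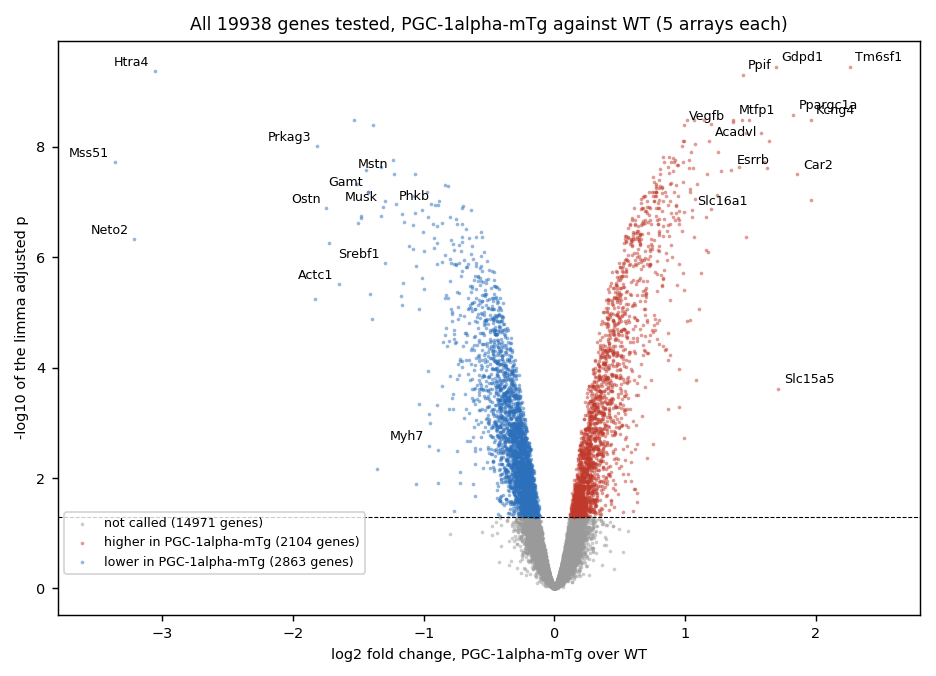
Each point is 1 of the 19938 genes, with the log2 fold change of PGC-1alpha-mTg over WT on the horizontal axis and -log10 of the limma adjusted p on the vertical axis. Red points are the 2104 genes called higher, blue points the 2863 called lower, the dashed line is an adjusted p of 0.05, and Mss51, Neto2 and Htra4 lie farthest to the left while Tm6sf1 lies farthest to the right.

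The targeted gene was examined first, with both probe sets of its name. Probe set 10529979 of Ppargc1a read 9.55, 9.38, 9.65, 9.63 and 9.75 on the WT arrays 1 to 5 and 11.36, 11.37, 11.37, 11.53 and 11.48 on the PGC-1alpha-mTg arrays 1 to 5. All transgenic arrays lay above all WT arrays, and the transgenic arrays were closer to each other than the WT arrays were. The change was 1.83 ± 0.07 (adjusted p = 2.65e-09), or 3.55-fold. Probe set 10529977 of the same gene read 8.08, 7.87, 8.17, 8.08 and 8.19 in WT and 6.93, 6.99, 6.92, 7.08 and 7.47 in PGC-1alpha-mTg. Here every transgenic array lay below every WT array, with PGC-1alpha-mTg 5 the highest of its group, and the change was -1.003 ± 0.10 (adjusted p = 6.79e-06 among all probe sets). With both probe sets averaged the change of the gene was 0.41 (adjusted p = 0.00128). The sources used here do not say whether either probe set reads the transgene, and the cause of their opposite signs was not tested. The 2 relatives of the gene were not called. Ppargc1b, which encodes PGC-1beta, was at -0.22 ± 0.12 (adjusted p = 0.222) and Pprc1, the PGC-1-related coactivator, at -0.17 ± 0.08 (adjusted p = 0.137).

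Nuclear receptors that PGC-1alpha is known to coactivate did not move as a class. Among the ERR genes, Esrrb read 6.19, 5.96, 5.88, 6.03 and 6.13 on the WT arrays and 7.38, 7.40, 7.31, 7.28 and 7.58 on the transgenic arrays. The nearest values of the groups were 1.09 apart, and the change of 1.35 ± 0.07 (adjusted p = 2.63e-08) was the largest of the 30 nuclear receptor genes listed. Esrra, the isotype that itself is a well-known PGC-1alpha target, rose by 0.66 ± 0.05 without overlap of the groups, while Esrrg, at 0.13 ± 0.05 (adjusted p = 0.0791), was not called. Among the PPARs, Pparg rose by 0.52 ± 0.08 and Ppara by 0.49 ± 0.14 (adjusted p = 0.0194). The call of Ppara was lost without WT 2 (adjusted p = 0.0548) and without PGC-1alpha-mTg 4 (adjusted p = 0.0507). Ppard, the main PPAR of muscle, was at -0.07 ± 0.05 (adjusted p = 0.334). The RXRs, their dimer partners, split: Rxrb rose by 0.25 ± 0.05, whereas Rxra (-0.36 ± 0.06) and Rxrg (-0.45 ± 0.06) fell. Rora and Nr4a1, a retinoid-related orphan receptor and an immediate early receptor, fell by 0.57 ± 0.05 and by 0.44 ± 0.08. Of 30 nuclear receptor genes, 8 were higher and 7 lower, at a median of 0.02, which lay between -0.02 and 0.02 with 1 array left out. The wider list of PGC-1 family members and regulators of mitochondrial genes had 6 higher and 6 lower of 29, at a median of -0.09 and a mean of 0.11. The median was between -0.10 and -0.06 with 1 array left out. Its lower count was 3 without WT 2 or without PGC-1alpha-mTg 3, and 2 without PGC-1alpha-mTg 2 and 3 together. Among the higher members was Sirt3 (1.04 ± 0.06), the mitochondrial deacetylase.

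The 20 largest rises held enzymes of lipid turnover, membrane proteins and mitochondrial proteins. Kcng4, a silent subunit that modifies voltage-gated potassium channels, read 8.16, 7.89, 7.93, 7.78 and 7.69 on the WT arrays and 9.77, 9.93, 9.79, 9.87 and 9.91 on the transgenic arrays. The lowest transgenic value lay 1.61 above the highest WT value, for a change of 1.96 ± 0.08 (adjusted p = 3.28e-09). Tm6sf1, a transmembrane protein gene, had the largest rise (2.26 ± 0.06). Enzymes that handle lipids were Gdpd1, a glycerophosphodiesterase (1.69 ± 0.05), Cds1, a CDP-diacylglycerol synthase (1.63 ± 0.08), Plbd1, a phospholipase B-like protein (1.49 ± 0.06), and Nceh1, a neutral cholesterol ester hydrolase (1.37 ± 0.06). Mitochondrial proteins were Ppif, the cyclophilin of the permeability transition pore (1.44 ± 0.05), and Mtfp1, an inner-membrane protein of fission (1.37 ± 0.05). Car2, a cytosolic carbonic anhydrase, rose by 1.86 ± 0.10. Other carbonic anhydrases, chosen after their values were seen, were split, with Car14 (1.04 ± 0.11) and Car4 (0.62 ± 0.17), both membrane-bound, higher and the cytosolic muscle form Car3 lower (-0.81 ± 0.05). P2ry1, an ADP receptor gene, rose by 1.28 ± 0.07, and Adig, known from fat cells as adipogenin, by 1.61 ± 0.08. Slc15a5, of the peptide transporter family, varied most. It read 7.71, 8.30, 6.89, 6.62 and 7.48 in WT and 9.12, 9.25, 9.50, 9.02 and 8.69 in PGC-1alpha-mTg. The groups did not overlap, but the change of 1.71 ± 0.26 came with the largest SE of these genes.

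The largest falls were larger than the largest rises. Mss51, a mitochondrial protein gene of fast fibres, read 10.45, 10.88, 11.30, 11.10 and 11.08 on the WT arrays and 8.13, 7.39, 7.31, 7.71 and 7.44 on the transgenic arrays. Both groups had 1 array nearer to the other group, WT 1 and PGC-1alpha-mTg 1, and still the nearest values were 2.32 apart, for a change of -3.36 ± 0.17 (adjusted p = 1.91e-08). Neto2, an auxiliary subunit of kainate receptors, read 8.28, 8.73, 7.31, 7.36 and 7.85 and 5.23, 4.58, 4.58, 4.63 and 4.43. Its WT arrays ranged widely, and all lay at least 2.08 above the highest transgenic array, PGC-1alpha-mTg 1. Htra4, a serine protease gene, read 10.07, 10.50, 10.45, 10.20 and 10.11 and 7.25, 7.32, 7.17, 7.32 and 6.98, with groups far apart and little spread in either. Further falls among the 20 were those of Prkag3, the fast-muscle gamma subunit of AMP-activated kinase (-1.82 ± 0.08), Ostn, which encodes the secreted peptide musclin (-1.75 ± 0.11), and Actc1, the cardiac actin (-1.65 ± 0.15). Also among the 20 were Kcnab1, a potassium channel beta subunit (-1.48 ± 0.10), Cbr2, a carbonyl reductase (-1.51 ± 0.08), and Gdap1, a protein of the outer mitochondrial membrane (-1.40 ± 0.15).

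**Figure D2:**
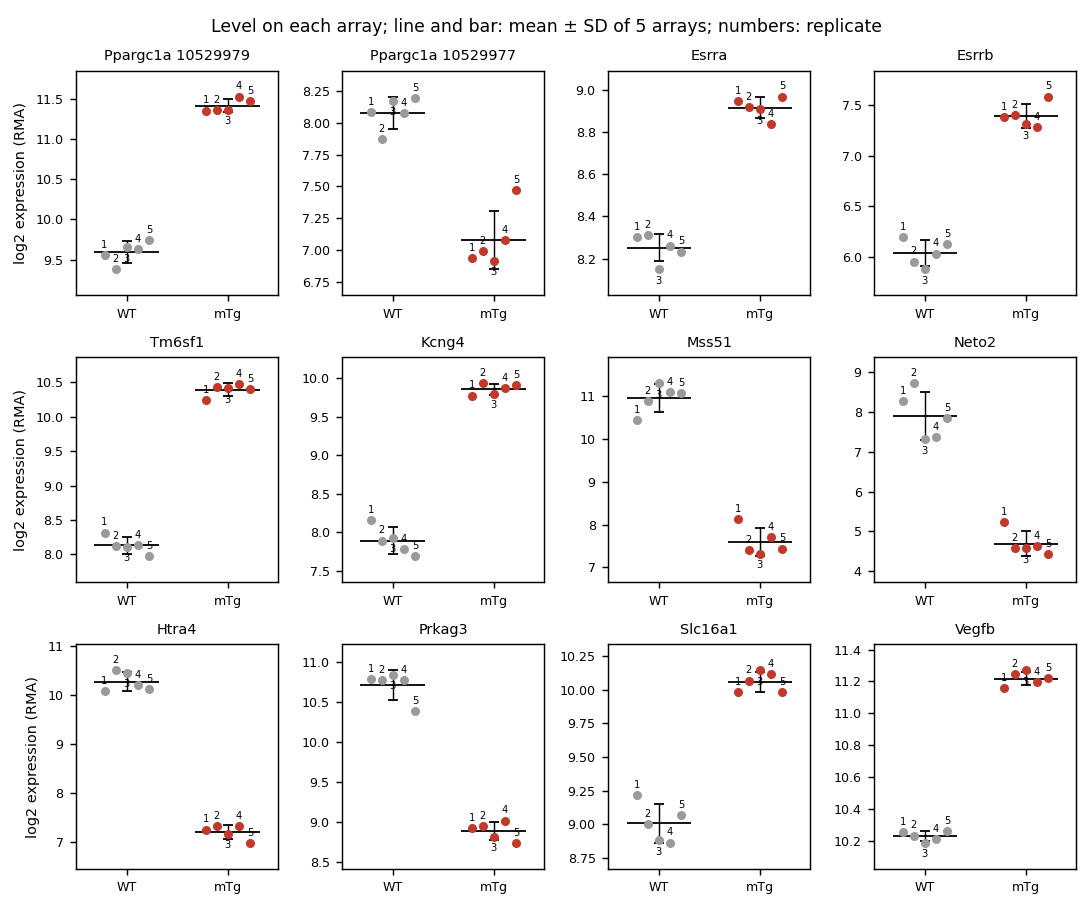
Each panel gives the log2 RMA level of 1 gene on the 5 WT arrays (grey) and the 5 PGC-1alpha-mTg arrays (red), numbered by replicate, with the mean as a line and ± SD as a bar, and each panel has its own vertical axis. In all 12 panels the groups do not overlap, and the 2 probe sets of Ppargc1a lie in opposite directions.

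Gamt, which makes creatine by methylating guanidinoacetate, read 8.46, 8.33, 8.26, 8.29 and 8.43 in WT and 6.64, 7.10, 6.90, 6.88 and 7.12 in PGC-1alpha-mTg, apart on every array, and fell by 1.42 ± 0.08 (adjusted p = 6.51e-08). Gatm, the enzyme of the step before, was looked up after this value was seen and fell by 0.58 ± 0.09, and the creatine transporter gene Slc6a8 was at -0.23 ± 0.05 (adjusted p = 0.0053). The mitochondrial creatine kinase gene Ckmt2 moved the other way and rose by 0.92 ± 0.05, while the cytosolic muscle form Ckm, also looked up, was at -0.08 ± 0.04 (adjusted p = 0.163). Odc1, ornithine decarboxylase, which starts polyamine synthesis, read 9.48, 9.40, 9.35, 9.33 and 9.60 in WT and 8.13, 7.93, 8.08, 8.43 and 7.94 in PGC-1alpha-mTg. No arrays overlapped, the change was -1.33 ± 0.09, and the other probe set of the gene gave -1.31 ± 0.07. Smox, which oxidises spermine, fell by 1.41 ± 0.13. Sat1, the acetyltransferase of polyamine breakdown, was at 0.22 ± 0.07 (adjusted p = 0.0295), a call that was lost without any of WT 1, 2, 3 or 5 or PGC-1alpha-mTg 3 or 5 (adjusted p up to 0.077) and with all 20 arrays in the fit (0.0796).

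The respiratory chain and ATP synthase, which pass electrons to oxygen and turn the proton gradient into ATP, rose nearly as a whole. Of 80 subunit genes measured, 78 were higher and 0 lower, against 10.6% higher among all genes, at a median of 0.53. For all 78 called members every transgenic array lay above every WT array. The medians were alike over the complexes. Complex I, which takes electrons from NADH, had 33 of 34 higher at a median of 0.57, complexes II and III together with cytochrome c 14 of 14 at 0.57, complex IV, the oxidase, 14 of 15 at 0.51, and ATP synthase 17 of 17 at 0.50. The spread between subunits was larger than that between complexes, from 0.08 to 0.94. The 2 members that were not called were Ndufa2 (0.11 ± 0.06, adjusted p = 0.229) and Cox4i2 (0.08 ± 0.05, adjusted p = 0.311), the minor isoform of the oxidase subunit whose main isoform, Cox4i1, had the largest rise of the complex (0.94 ± 0.05). Both muscle isoforms of the other oxidase subunits, looked up after these values were seen, rose as well, Cox6a2 by 0.35 ± 0.04 and Cox7a1 by 0.58 ± 0.04. Cox6a1, the isoform of most other tissues, rose by 0.79 ± 0.06. The mean over the 80 genes lay between 0.51 and 0.58 above the WT mean on the 5 transgenic arrays, and within -0.03 to 0.04 of it on the WT arrays, so the arrays of a group differed little.

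Promoter sequence was read for the same genes, since members moved together. Of the 19938 genes, 15614 had an entry in the RefSeq promoter table of build GRCm38.p6, 250 bases before the transcription start to 50 after it. Both strands were searched for TNAAGGTCA, the extended single site that ERR receptors bind. It was in 1.17% of all promoters, 0.897% of those of genes called higher and 0.918% of those called lower. It was in 0 of 16 promoters of the TCA cycle list, 0 of 23 of the fatty acid oxidation list and 0 of 70 of the mitochondrial ribosome. Among promoters of the respiratory chain and ATP synthase 2 of 66 held it (3.03%). Those 2 belonged to Atp5g3, a subunit of the membrane ring of ATP synthase that rose by 0.78 ± 0.05, and to Sdhd, a membrane anchor of complex II that rose by 0.80 ± 0.04. They are shown 5′ to 3′ with the match in capitals, which reads as its reverse complement TGACCTTGA. The Atp5g3 stretch is chr2:73911327-73911446 on the minus strand, with the match starting 52 bases upstream of the start. The Sdhd stretch is chr9:50603800-50603823 on the minus strand, and its match lies downstream of the start.
Atp5g3: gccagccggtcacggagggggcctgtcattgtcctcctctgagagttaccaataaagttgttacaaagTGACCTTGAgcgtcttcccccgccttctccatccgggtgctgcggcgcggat
Sdhd: ggttgtagagTGACCTTGAgccct
CCGGAAG, the core that ETS factors such as GABP bind, was far more frequent. It was in 13.6% of all promoters, 17.4% of those called higher and 18.7% of those called lower, in 17 of 66 promoters of the respiratory chain and ATP synthase (25.8%) and in 25 of 70 of the mitochondrial ribosome (35.7%). The promoters of 2 members of each list with a match upstream of the start, chosen after the values were seen, are shown in the same way. They are Cox6a1 (chr5:115348959-115349078, minus strand, match starting 16 bases upstream), Ndufb7 of complex I (chr8:83566638-83566757, plus strand, 20 bases upstream), Mrps27 of the small mitochondrial ribosomal subunit (chr13:99344666-99344785, plus strand, 48 bases upstream) and Mrpl34 of the large one (chr8:71464806-71464925, plus strand, 37 bases upstream). In Cox6a1 and Mrps27 the capitals read as the reverse complement.
Cox6a1: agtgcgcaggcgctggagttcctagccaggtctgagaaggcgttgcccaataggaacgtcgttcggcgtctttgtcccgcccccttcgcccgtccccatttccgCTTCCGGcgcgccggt
Ndufb7: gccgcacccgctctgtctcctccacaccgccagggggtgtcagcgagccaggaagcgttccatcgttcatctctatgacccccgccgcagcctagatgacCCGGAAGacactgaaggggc
Mrps27: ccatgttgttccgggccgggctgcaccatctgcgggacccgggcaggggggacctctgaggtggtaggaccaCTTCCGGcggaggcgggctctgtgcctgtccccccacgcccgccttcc
Mrpl34: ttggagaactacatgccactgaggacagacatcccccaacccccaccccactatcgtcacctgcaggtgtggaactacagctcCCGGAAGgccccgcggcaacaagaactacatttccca
The palindromic consensus site of NRF1 was in 1.62% of all promoters, 2.27% of those called higher, 2.75% of those called lower, 6.06% of the respiratory list and 8.57% of the ribosomal list. TGACGTCA, the site of CREB, was in 2.72% of all, 3.65% of those called higher, 3.37% of those called lower, 7.58% of the respiratory list and 2.86% of the ribosomal list. No motif searched contains another. A match describes these letters only, and it was not tested whether a factor binds there.

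Assembly of the complexes and synthesis of their cofactor followed. Of 40 assembly factors, 33 were higher and 0 lower, at a median of 0.41, led by Uqcc1 for complex III (0.93 ± 0.06) and Ndufaf1 for complex I (0.89 ± 0.05). Of 12 genes of coenzyme Q synthesis, 9 were higher, at a median of 0.38, with Coq5 (0.78 ± 0.04) and Coq6 (0.73 ± 0.06) first.

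Genes that feed the chain moved with it. Of 17 genes of the TCA cycle and pyruvate dehydrogenase, 16 were higher, at a median of 0.59. The exception was Idh2, the NADP-dependent isocitrate dehydrogenase of the matrix, which read 11.03, 10.85, 10.97, 11.04 and 11.04 in WT and 10.99, 10.90, 10.96, 10.93 and 11.16 in PGC-1alpha-mTg (adjusted p = 0.998). Its groups overlapped throughout, whereas citrate synthase, Cs, rose by 0.45 ± 0.04 and Dld, the shared lipoamide dehydrogenase subunit, by 0.87 ± 0.06. Of 26 genes of fatty acid uptake and oxidation, 23 were higher, at a median of 0.59. Acadvl, the first dehydrogenase for very long chains, read 9.39, 9.37, 9.36, 9.34 and 9.42 on the WT arrays and 10.50, 10.49, 10.53, 10.54 and 10.74 on the transgenic arrays. The transgenic arrays all lay at least 1.07 above the highest WT array. The 3 members that were not called, Lpl (0.19 ± 0.08, adjusted p = 0.106), Cpt1a (0.24 ± 0.10, adjusted p = 0.0965) and Slc27a4 (0.17 ± 0.07, adjusted p = 0.0765), encode the lipase of the capillary wall, the liver-type carnitine palmitoyltransferase and a fatty acid transport protein. Cpt1b, the muscle form of that palmitoyltransferase, and Acsl1 were not among the genes tested. The mean of the list was highest on PGC-1alpha-mTg 5 (0.73 above WT) and 0.53 to 0.61 on the other transgenic arrays.

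Entry of pyruvate was not moved in 1 direction. Of 8 genes of the pyruvate carrier, the regulation of pyruvate dehydrogenase and pyruvate carboxylase, 4 were higher and 2 lower. Mpc1, a subunit of the carrier, rose by 0.41 ± 0.04, as did Pdk4, a kinase that switches the dehydrogenase off (0.42 ± 0.07), and Pdp2, a phosphatase that switches it on (0.34 ± 0.07). Pcx, pyruvate carboxylase, fell by 0.59 ± 0.09.

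Lactate and ketone genes went both ways. Slc16a1, which encodes the lactate and ketone importer MCT1, read 9.22, 9.002, 8.88, 8.86 and 9.07 on the WT arrays and 9.98, 10.07, 10.15, 10.12 and 9.98 on the transgenic arrays, without overlap, for a rise of 1.05 ± 0.07 (adjusted p = 1.41e-07). Slc16a3, for MCT4, known as the lactate exporter of glycolytic fibres, fell by 0.47 ± 0.05. The lactate dehydrogenase genes Ldhb (heart form) and Ldha (muscle form) were at 0.32 ± 0.08 and -0.30 ± 0.05, both called. Ldhd, for D-lactate, rose by 0.80 ± 0.05 and Oxct1, which activates ketone bodies, by 0.63 ± 0.07. In all 4 of 9 genes were higher and 2 lower.

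Amino acid genes were mostly higher. Branched-chain amino acid breakdown had 14 higher and 1 lower of 21, at a median of 0.28, led by Hibch (0.79 ± 0.06), of valine breakdown, and Bckdha (0.62 ± 0.05), of the shared dehydrogenase, while Acadsb was lower (-0.24 ± 0.04). The median was 0.37 without PGC-1alpha-mTg 2 and 3. Kynurenine aminotransferases, which turn kynurenine into kynurenic acid in muscle, were listed with the aminotransferases and carriers of the malate-aspartate shuttle, and 9 of these 13 were higher and 3 lower. Kyat3 read 6.76, 6.71, 6.89, 6.71 and 6.79 in WT and 7.65, 7.69, 7.49, 7.66 and 8.05 in PGC-1alpha-mTg. It rose by 0.94 ± 0.09 with no overlap, Kyat1 rose by 0.48 ± 0.05 and Got2, which also accepts kynurenine, by 0.54 ± 0.04, and Aadat was at 0.04 ± 0.06 (adjusted p = 0.691). The cytosolic arm of the shuttle rose with them, Mdh1 by 0.81 ± 0.04 and Got1 by 0.80 ± 0.05. The lower members, Gpd2 (-0.38 ± 0.06) and Gpd1 (-0.17 ± 0.04), form the glycerol phosphate shuttle, the other route for cytosolic NADH, and the last was Gpt2 (-0.31 ± 0.06).

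Carriers of the inner membrane were mostly higher, with 23 of 36 higher and 4 lower at a median of 0.26. The lower count was 2 without WT 2, PGC-1alpha-mTg 2 or PGC-1alpha-mTg 3. Slc25a34, an orphan carrier, rose most (1.16 ± 0.09), then Ucp3, the uncoupling protein of muscle (0.95 ± 0.16), and Slc25a22, a glutamate carrier (0.89 ± 0.11). Slc25a25, the calcium-dependent ATP-Mg carrier, read 7.82, 8.47, 8.58, 7.77 and 8.58 in WT and 6.77, 8.16, 6.38, 7.13 and 7.47 in PGC-1alpha-mTg. The groups overlapped, and the gene fell by 1.06 ± 0.28 (adjusted p = 0.0131), a call that was lost with trend and robust moderation (adjusted p = 0.0532). Slc25a30 fell by 0.89 ± 0.19.

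Making mitochondria showed the same direction. Of 80 mitochondrial ribosomal proteins, 61 were higher and 0 lower, at a median of 0.35, led by Mrpl45 (0.87 ± 0.04) and Mrps27 (0.84 ± 0.06). Without PGC-1alpha-mTg 4, 1 of them was lower. Of 16 mitochondrial aminoacyl-tRNA synthetases, 10 were higher, with Yars2 first (0.80 ± 0.06). Of 20 factors that copy, transcribe and translate mitochondrial DNA, 11 were higher, at a median of 0.20, led by the elongation factors Gfm1 (0.91 ± 0.05) and Tufm (0.80 ± 0.06) and the termination factor family member Mterf2 (0.87 ± 0.10). Import, cristae and protease genes had 29 higher and 3 lower of 42, with Timm21 (0.71 ± 0.09) and Tomm5 (0.71 ± 0.08) first and Timm17b lower (-0.35 ± 0.06). Fusion, fission and mitophagy genes were mixed, with 7 higher and 4 lower of 15. Beside Mtfp1, the fusion genes Mfn1 (0.68 ± 0.04) and Opa1 (0.37 ± 0.05) and the fission gene Dnm1l (0.37 ± 0.05) rose. The lower genes were all mitophagy genes, the receptors Fundc1 (-0.37 ± 0.08), Bnip3 (-0.19 ± 0.05) and Bnip3l (-0.16 ± 0.04) and the kinase Pink1 (-0.16 ± 0.04). The calls of Bnip3l and Pink1 were lost without PGC-1alpha-mTg 2 and 3 together (adjusted p = 0.0837 and 0.0695).

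Their cytosolic counterparts were more often lower than higher. Of 54 cytosolic ribosomal proteins none was higher and 23 were lower, at a median of -0.13, with Rpl36a (-0.38 ± 0.06) and Rpl10 (-0.32 ± 0.04) first. Among all genes 14.4% were lower, and without the dimmest 40 percent 3007 of 11963 were. Cytosolic ribosomal protein genes have many processed copies in the genome, so their probe sets may share signal. Of 18 cytosolic aminoacyl-tRNA synthetases none was higher and 8 were lower, led by Tars (-0.42 ± 0.06), and of 37 initiation and elongation factors 1 was higher and 17 were lower, among them Eef2k, the kinase of elongation factor 2 (-0.55 ± 0.08), and Eif4b (-0.44 ± 0.07). The last count was 11 without WT 3, PGC-1alpha-mTg 2 or PGC-1alpha-mTg 3, and 9 without the last 2 arrays together. The changes were small, and the means of these lists were lowest on PGC-1alpha-mTg 2 or 3.

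**Figure D3:**
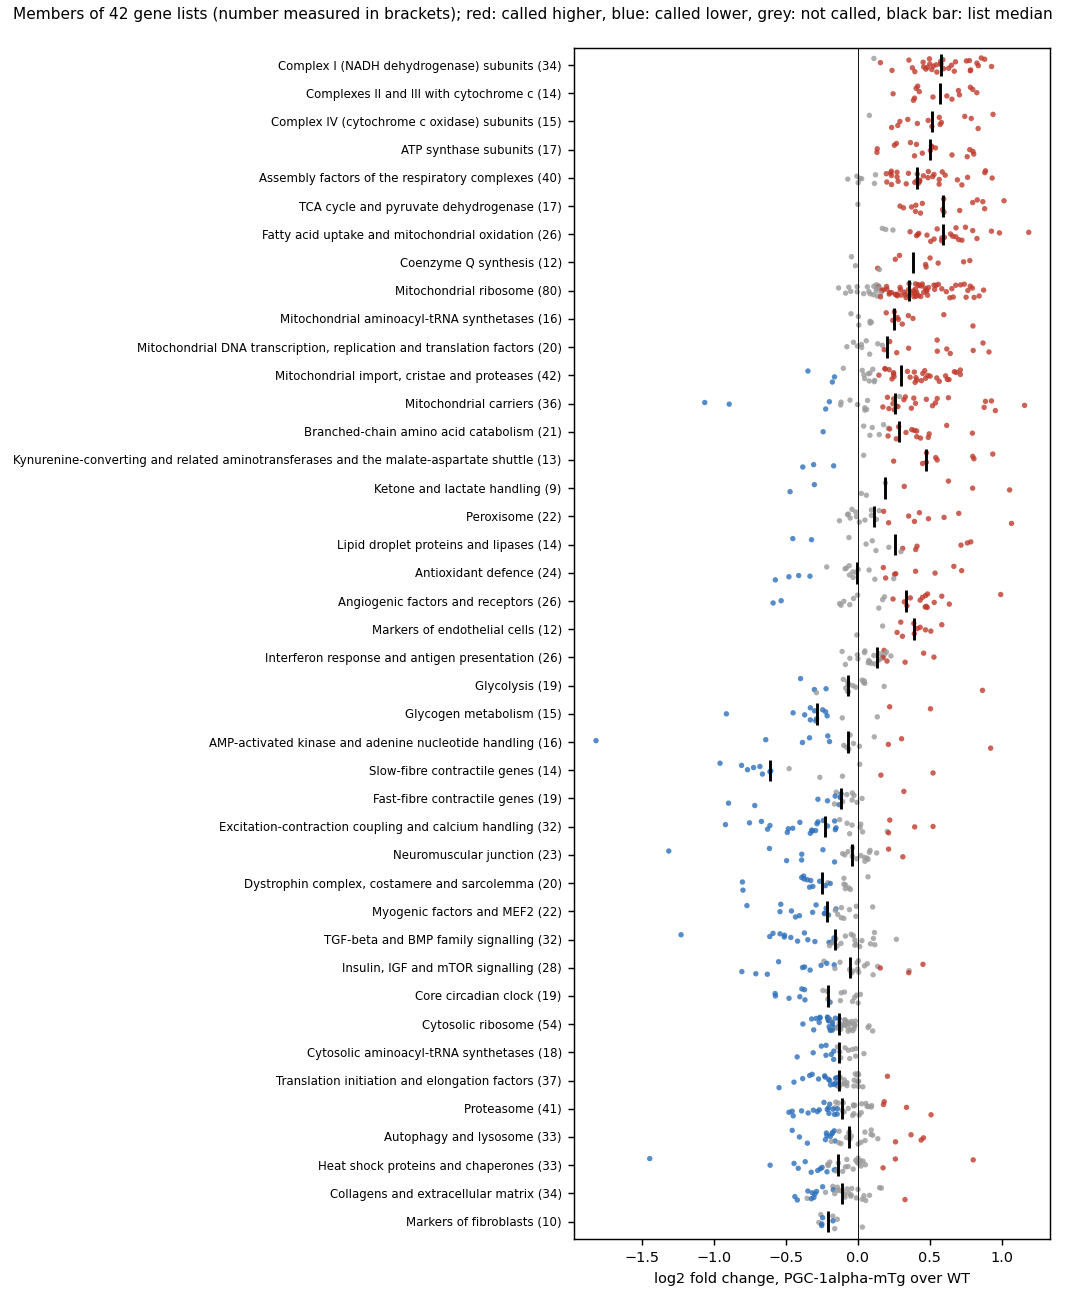
Each point is 1 measured gene of 1 of 42 lists, placed by its log2 fold change of PGC-1alpha-mTg over WT, with the number measured in brackets, red for called higher, blue for called lower, grey for not called and a black bar at the list median. The medians of the 4 rows of respiratory chain and ATP synthase subunits lie between 0.50 and 0.57, and those of the cytosolic translation lists lie at -0.13.

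Lipid storage genes were more often higher than lower, whereas lipid synthesis genes did not follow oxidation. Lipid droplet proteins and lipases had 6 higher and 2 lower of 14, at a median of 0.26. Their mean lay 0.16 to 0.33 above the WT mean on the transgenic arrays, and within -0.09 to 0.05 of it on the WT arrays. Plin5, the droplet protein that tethers droplets to mitochondria, rose by 0.78 ± 0.09, Pnpla2, the triglyceride lipase ATGL, by 0.72 ± 0.05 and its activator Abhd5 by 0.41 ± 0.04, while Plin2 (-0.45 ± 0.05) and Plin3 (-0.32 ± 0.08), the droplet coats of most tissues, were lower, Plin3 not after quantile normalization (adjusted p = 0.0523). Of 19 lipogenic and sterol genes, 2 were higher and 4 lower, at a median of -0.05 that turned to 0.07 without PGC-1alpha-mTg 2 and 3. Srebf1, the transcription factor that drives fatty acid synthesis, read 8.73, 8.46, 8.32, 8.17 and 7.99 in WT and 7.08, 6.94, 6.99, 7.11 and 7.06 in PGC-1alpha-mTg. The groups did not overlap, and it fell by 1.30 ± 0.11 (adjusted p = 1.29e-06). The malic enzyme Me1, which makes NADPH, fell by 0.94 ± 0.06 and the desaturase Scd2 by 0.96 ± 0.13, whereas Hmgcs1, of sterol synthesis, rose by 0.48 ± 0.06. Of 22 peroxisome genes, 9 were higher and 0 lower. Phyh, which starts the breakdown of phytanic acid, read 10.58, 10.46, 10.50, 10.53 and 10.58 in WT and 11.59, 11.62, 11.55, 11.64 and 11.59 in PGC-1alpha-mTg and rose by 1.07 ± 0.04, every transgenic array above every WT array. Pex11a, of peroxisome division, rose by 0.70 ± 0.07.

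The glycolysis genes measured were little changed and glycogen genes were lower. Gapdh, Gpi1, Eno1 and Pfkfb1 of glycolysis were not among the genes tested. Of 19 glycolysis genes, 1 was higher and 3 were lower, at a median of -0.07. Pfkfb2, an isoform that makes the activator of phosphofructokinase, rose by 0.86 ± 0.07, and the glucose transporter Slc2a1 (-0.40 ± 0.07) and the pyruvate kinase Pkm (-0.22 ± 0.05) were lower. The lower count was 6 after quantile normalization and 8 with trend and robust moderation, and the higher count was 2 without PGC-1alpha-mTg 1. Of 15 glycogen genes, 2 were higher and 11 lower, at a median of -0.29. Subunits of phosphorylase kinase, which switches breakdown on, led the falls. Phkb read 11.45, 11.56, 11.63, 11.63 and 11.56 in WT and 10.69, 10.63, 10.64, 10.80 and 10.51 in PGC-1alpha-mTg, without overlap, and fell by 0.91 ± 0.06, while Phka1 (-0.45 ± 0.05) and Phkg1 (-0.37 ± 0.05) also fell. The phosphorylase Pygm (-0.24 ± 0.04) and the primer protein Gyg (-0.33 ± 0.05) were lower. The higher members make glycogen, the branching enzyme Gbe1 (0.50 ± 0.05) and the synthase Gys1 (0.22 ± 0.04).

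The energy sensor AMP-activated kinase changed in its gamma subunits. Prkag3 read 10.79, 10.77, 10.84, 10.77 and 10.39 on the WT arrays and 8.93, 8.95, 8.82, 9.02 and 8.74 on the transgenic arrays. WT 5 was the lowest WT array and still lay 1.37 above the highest transgenic one, and the gene fell by 1.82 ± 0.08 (adjusted p = 9.82e-09). Prkag2 fell by 0.64 ± 0.06, and Prkag1, the form of most tissues, rose by 0.30 ± 0.04. The beta subunit Prkab2 (-0.34 ± 0.05) and the muscle AMP deaminase Ampd1 (-0.38 ± 0.05) were lower. In all, 3 of 16 genes of the kinase and of adenine nucleotide handling were higher and 6 lower.

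PGC-1alpha is often linked with slow, oxidative fibres, yet slow contractile genes were lower in these samples. Of 14 slow-fibre genes, 2 were higher and 8 lower, at a median of -0.61. Myh7, the slow myosin heavy chain, read 10.52, 9.89, 10.06, 10.10 and 10.11 in WT and 9.46, 8.95, 9.43, 8.41 and 9.64 in PGC-1alpha-mTg. All transgenic arrays lay below all WT arrays, PGC-1alpha-mTg 4 by far the lowest, and the change was -0.96 ± 0.20 (adjusted p = 0.00261). The slow light chains Myl2 (-0.81 ± 0.13) and Myl3 (-0.68 ± 0.11), the slow troponin T gene Tnnt1 (-0.72 ± 0.18), the calcium pump Atp2a2 (-0.61 ± 0.10) and Myoz2 (-0.66 ± 0.09) were lower too, and calls of these and of Myh7 held with any array left out. Tnnc1, slow troponin C, at -0.77 ± 0.25 (adjusted p = 0.0404), lost its call without WT 1, 2, 4 or 5 or PGC-1alpha-mTg 2 (adjusted p up to 0.104), with all 20 arrays in the fit (0.118), after quantile normalization (0.0546), with trend and robust moderation (0.111) and without PGC-1alpha-mTg 2 and 3 (0.0531). Without PGC-1alpha-mTg 4 its change was -0.49. Tpm3 fell by 0.60 ± 0.18 on its brightest probe set, a call lost without WT 1 (adjusted p = 0.0576) or PGC-1alpha-mTg 2 (adjusted p = 0.0504), with trend and robust moderation (0.0706), without PGC-1alpha-mTg 2 and 3 (0.0533) and with probe sets averaged (0.117). Its other probe sets ranged from -0.09 to -0.01, none called. Tnni1, slow troponin I, was at -0.48 ± 0.18 (adjusted p = 0.0725).

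The arrays of a group differed in these genes more than in any mitochondrial list. The mean of the slow list was 0.25 on WT 1 and -0.22 on WT 2 relative to the WT mean, and -0.78 on PGC-1alpha-mTg 4 and -0.21 on PGC-1alpha-mTg 5, so in this mean the groups overlapped at WT 2 and PGC-1alpha-mTg 5. The sources used here do not give how much of the slow region of the muscle each sample held, and its part in the result was not tested. A slow-fibre gene that went up was Casq2, the cardiac and slow form of the calcium store protein calsequestrin, which read 8.22, 7.64, 7.90, 8.15 and 8.09 in WT and 8.39, 8.41, 8.51, 8.47 and 8.82 in PGC-1alpha-mTg. It rose by 0.52 ± 0.11 (adjusted p = 0.00296), with WT 2 the lowest and PGC-1alpha-mTg 5 the highest array. The other, Actn2, at 0.16 ± 0.05 (adjusted p = 0.0486), lost its call when any of 8 arrays was left out, among them WT 2 (0.113).

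Fast contractile genes changed less. Of 19, 1 was higher and 9 were lower, at a median of -0.12, and the lower count was 5 without WT 3, WT 4, PGC-1alpha-mTg 2 or PGC-1alpha-mTg 3. The higher gene was Myh1, the IIx myosin, which read 12.15, 11.995, 12.13, 12.17 and 12.19 in WT and 12.39, 12.38, 12.48, 12.50 and 12.49 in PGC-1alpha-mTg, apart on every array, for a rise of 0.32 ± 0.05 (adjusted p = 0.000344). Myh4, the IIb myosin, was at -0.04 ± 0.04 (adjusted p = 0.533) and Myh2, the IIa myosin, at -0.15 ± 0.06 (adjusted p = 0.109). Myoz3 (-0.90 ± 0.06), which binds calcineurin at the Z-disc of fast fibres, the light chain kinase Mylk2 (-0.72 ± 0.06) and the Z-disc actinin Actn3 (-0.28 ± 0.04) fell. Of 13 developmental and cardiac contractile genes 1 was higher and 3 were lower, Actc1 first, then Myl4 (-0.46 ± 0.08) and Tnnt2 (-0.37 ± 0.07). The higher count was 0 when WT 1, 2, 3 or 5 or PGC-1alpha-mTg 1, 2 or 3 was left out.

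**Figure D4:**
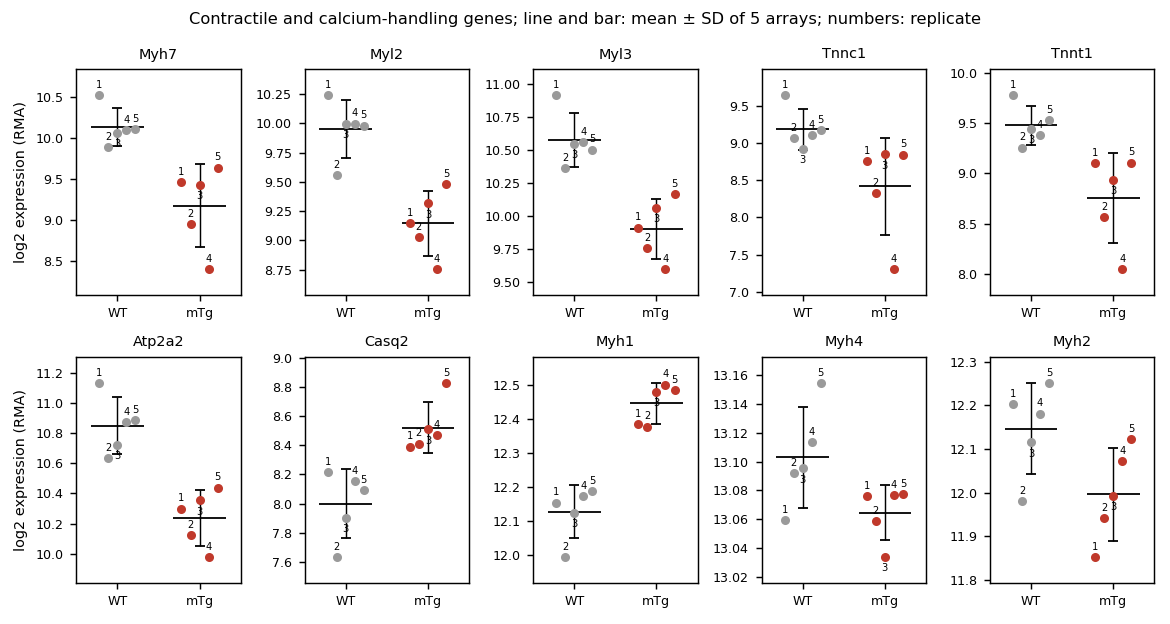
Each panel gives the log2 RMA level of 1 contractile or calcium-handling gene on the 5 WT arrays (grey) and the 5 PGC-1alpha-mTg arrays (red), numbered by replicate, with the mean as a line and ± SD as a bar, and each panel has its own vertical axis. Casq2 and Myh1 are higher in PGC-1alpha-mTg, the slow genes of the upper row are lower with PGC-1alpha-mTg 4 lowest in each, and Myh4 and Myh2 overlap between the groups.

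Genes of calcium handling were mostly lower. Of 32 genes of excitation-contraction coupling, 4 were higher and 20 lower, at a median of -0.23. The falls were led by Mrln, which encodes the pump inhibitor myoregulin (-0.92 ± 0.07), Jph2, which holds the sarcoplasmic reticulum to the transverse tubule (-0.75 ± 0.05), the calcium channel gamma subunit Cacng1 (-0.67 ± 0.06) and the kinase Camk2d (-0.63 ± 0.05). The higher members were Casq2, the store protein Hrc (0.39 ± 0.04), the mitochondrial uniporter Mcu (0.21 ± 0.05) and the channel pore Cacna1s (0.22 ± 0.04), which was not called after quantile normalization (adjusted p = 0.0791). Of 33 potassium channel genes, 7 were higher and 5 lower. Beside Kcng4 and Kcnab1, the small-conductance channel Kcnn2 (0.46 ± 0.09) and Kcnc4 (0.47 ± 0.07) were higher and the large-conductance channel Kcnma1 lower (-0.40 ± 0.06). A pair of beta subunits of the sodium pump, looked up after their values were seen, went opposite ways, Atp1b2 at -1.07 ± 0.06 and Atp1b1 at 0.42 ± 0.07, both called.

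Genes of the membrane and the synapse were also more often lower than higher. Of 23 neuromuscular junction genes, 2 were higher and 7 lower. The higher count was 1 without WT 2, 3 or 4 or PGC-1alpha-mTg 3 or 4. Musk, the kinase that clusters acetylcholine receptors, read 9.73, 10.01, 9.87, 9.62 and 9.93 in WT and 8.38, 8.57, 8.35, 8.69 and 8.60 in PGC-1alpha-mTg. It was lower on every transgenic array and fell by 1.31 ± 0.08 (adjusted p = 1.22e-07), and the receptor subunit Chrnb1 fell by 0.61 ± 0.07. Of 20 genes of the dystrophin complex and costamere, none was higher and 12 were lower, at a median of -0.25. Nos1, the nitric oxide synthase held there (-0.80 ± 0.07), Sntb1, a syntrophin (-0.80 ± 0.11), Dag1, dystroglycan (-0.39 ± 0.04), and Dmd, dystrophin itself (-0.38 ± 0.06), fell. The mean of this list was -0.35 and -0.34 on PGC-1alpha-mTg 2 and 3 and -0.24 to -0.19 on the others, and its median was -0.17 without those 2 arrays.

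Genes of growth and of wasting were both more often lower than higher. Mstn, which encodes the growth inhibitor myostatin, read 10.05, 10.17, 10.08, 10.09 and 10.25 in WT and 8.72, 9.01, 8.80, 8.998 and 8.97 in PGC-1alpha-mTg. No arrays overlapped, and it fell by 1.23 ± 0.07 (adjusted p = 3.07e-08). Of 32 genes of TGF-beta and BMP signalling none was higher and 14 were lower, at a median of -0.16, among them the receptors Acvr1 (-0.61 ± 0.05) and Tgfbr1 (-0.54 ± 0.07). On the growth-promoting side Igf1 (-0.80 ± 0.10) and Irs1, which passes on its signal (-0.55 ± 0.08), fell, as did Grb10, an inhibitor of that signal (-0.63 ± 0.10), and Akt1 rose (0.45 ± 0.05). Insulin, IGF and mTOR signalling had 3 higher and 10 lower of 28. The atrophy list had 3 higher and 9 lower of 21. Trim63, the ubiquitin ligase MuRF1, fell by 0.64 ± 0.05, and the metallothionein Mt1 rose by 0.87 ± 0.11. Of 22 myogenic factors and MEF2 genes none was higher and 13 were lower, at a median of -0.21. Myf6 (-0.77 ± 0.06) and Myod1 (-0.53 ± 0.09), which specify muscle, and the cofactor Eya4 (-0.54 ± 0.06) led. A loose form of the MEF2 site was searched, with any base allowed at its central positions, so a match need not be a MEF2 site. It was in 5 of the 15 promoters of this list held by the table (33.3%). It was in 4.15% of all, 3.41% of those called higher and 4.46% of those called lower. Among other lists it was in 13.3% for glycogen, 8.57% for the mitochondrial ribosome and 1.52% for the respiratory chain and ATP synthase. It was in 0% for the calcium handling, TCA cycle, fatty acid oxidation, angiogenic and endothelial lists.

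Protein turnover and stress genes were mixed, and the more common direction differed between lists. The proteasome had 4 higher and 17 lower of 41. The lower ones held subunits of the regulatory particle, Psmd8 (-0.48 ± 0.05) and Psmd5 (-0.46 ± 0.05), and the higher ones Psme1 (0.51 ± 0.05), of the interferon-inducible activator, and Psmb10 (0.34 ± 0.05), of the immunoproteasome. Autophagy and lysosome genes had 4 higher and 11 lower of 33, with Sqstm1, the cargo receptor p62, lower (-0.41 ± 0.05) and the cathepsin Ctsb higher (0.44 ± 0.04). Heat shock proteins had 3 higher and 12 lower of 33, from Hspa1l (-1.44 ± 0.08) to Hspa4l (0.80 ± 0.09). The unfolded protein and integrated stress response had 3 higher and 5 lower of 26, with Xbp1 lower (-0.34 ± 0.04). These shares, 11.5% and 19.2% at a median of -0.004, were near those of all genes, 10.6% and 14.4%. Antioxidant genes had 8 higher and 4 lower of 24. The higher ones held the mitochondrial enzymes Sod2 (0.67 ± 0.04), Txn2 (0.54 ± 0.04) and Prdx3 (0.40 ± 0.04) and also the cytosolic Prdx2 (0.72 ± 0.09), and the lower ones held Nqo1 (-0.48 ± 0.10), Gclm (-0.41 ± 0.07) and Gsr (-0.33 ± 0.05), which are known targets of NRF2. Of 19 core clock genes none was higher and 8 were lower, at a median of -0.21, led by Cry2 (-0.57 ± 0.09), Rora and Hlf (-0.48 ± 0.07). The sources used here do not give the time of day of sampling. Cell cycle genes had 2 higher and 5 lower of 28.

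Genes of blood vessels were higher. Of 26 angiogenic factors and receptors, 15 were higher and 2 lower, at a median of 0.33. Vegfb, a member of the VEGF family known in muscle and heart, read 10.25, 10.23, 10.19, 10.21 and 10.26 on the WT arrays and 11.16, 11.25, 11.27, 11.20 and 11.22 on the transgenic arrays. The groups were tight and apart, and it rose by 0.99 ± 0.04 (adjusted p = 4.05e-09). The receptors Kdr (0.58 ± 0.12) and Flt1 (0.47 ± 0.08), the hypoxia factor Epas1 (0.63 ± 0.06) and Fgf1 (0.53 ± 0.08) rose as well, while Fgf2 (-0.59 ± 0.08) and Pdgfa (-0.53 ± 0.07) fell. Markers of endothelial cells moved with them. Of 12 such markers, 10 were higher and 0 lower, at a median of 0.39, with Pecam1 at 0.30 ± 0.06 and Cdh5 at 0.39 ± 0.05, both called, and Tek at 0.17 ± 0.07 (adjusted p = 0.119) and Vwf at -0.01 ± 0.05 (adjusted p = 0.945) not called. Kdr, Flt1 and Tie1 are in both lists. The mean of the markers was -0.09 to 0.12 on the WT arrays around their mean and 0.25 to 0.45 above it on the transgenic arrays, highest on PGC-1alpha-mTg 5. Their part in the rise of the angiogenic genes was not tested.

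**Figure D5:**
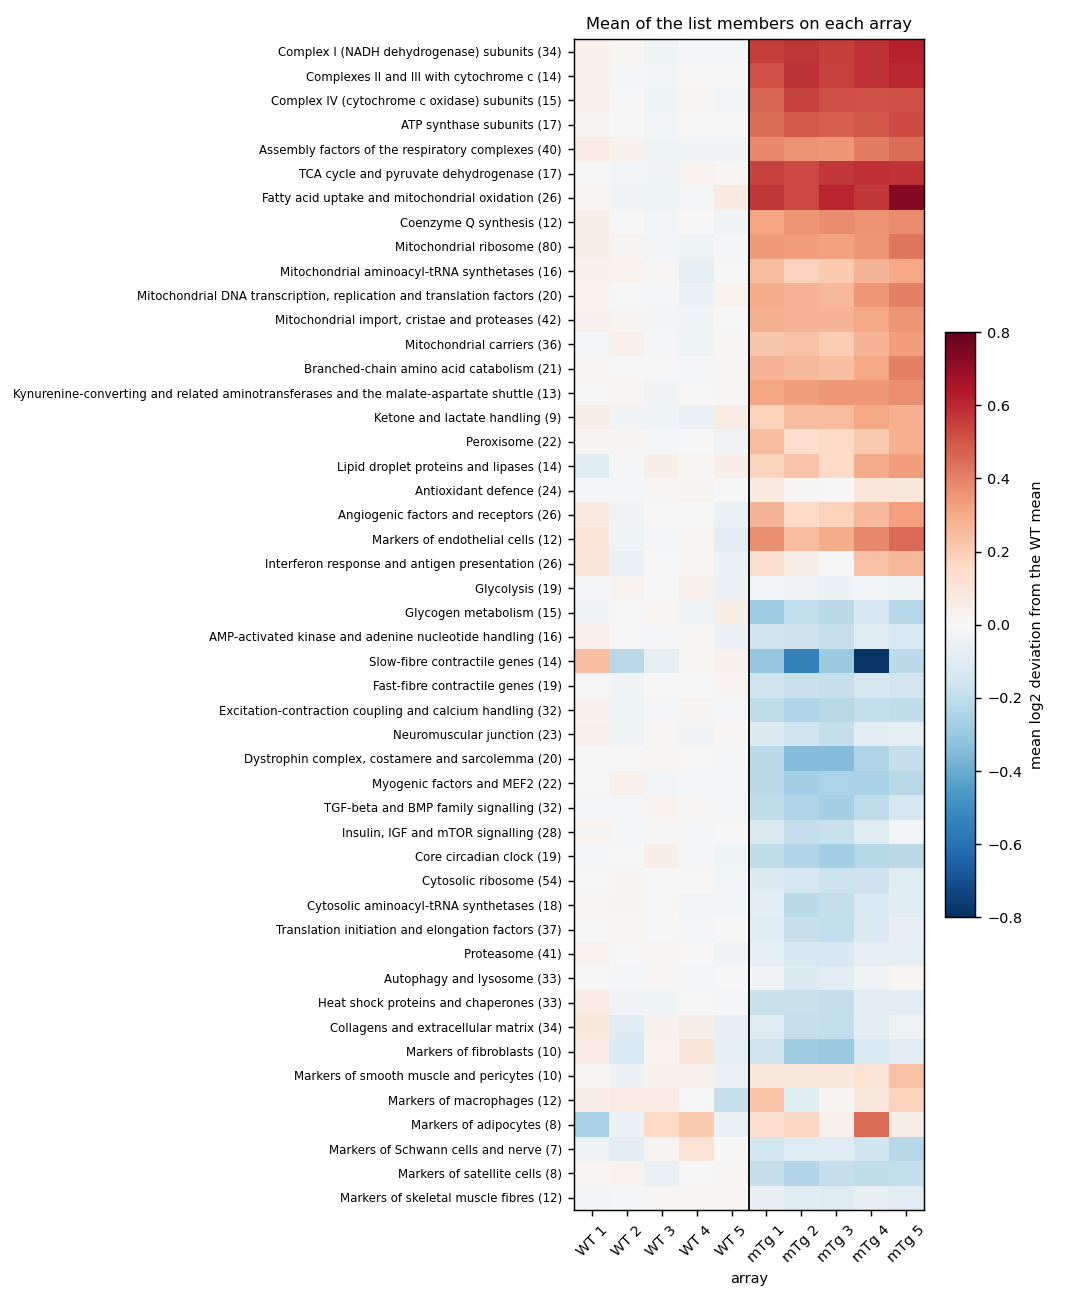
Rows are gene lists with the number of genes measured, columns are the 5 WT and 5 PGC-1alpha-mTg (mTg) arrays, and the colour is the mean over the list of the log2 deviation from the WT mean, on a scale from -0.8 to 0.8. The respiratory chain, TCA cycle and mitochondrial ribosome lists are above the WT mean on all transgenic arrays, whereas the slow-fibre list differs between the arrays of both groups, from 0.25 on WT 1 to -0.78 on PGC-1alpha-mTg 4.

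Markers of other cells gave smaller or less stable differences. Smooth muscle and pericyte markers had 2 of 10 higher, and macrophage markers 1 of 12. Of 9 lymphocyte and 3 red cell markers none was called. The macrophage count was 3 without PGC-1alpha-mTg 2 and 2 without PGC-1alpha-mTg 5, and 1 lymphocyte marker was higher without WT 1, PGC-1alpha-mTg 3 or PGC-1alpha-mTg 5. Adipocyte markers had 2 of 8 higher, Pparg and Fabp4 (0.33 ± 0.06), and their mean ran from -0.26 to 0.21 on the WT arrays and from 0.03 to 0.45 on the transgenic arrays, so the groups overlapped. Whether adipocytes bear on Pparg and on Adig, both also fat-cell genes, was not tested. Of 10 fibroblast markers 4 were lower. That count was 7 without WT 2 or PGC-1alpha-mTg 5, and 1 without PGC-1alpha-mTg 2 and 3 together. The collagens and other matrix genes had 1 higher and 10 lower of 34, 6 lower without WT 3 and 5 without PGC-1alpha-mTg 2 and 3. The higher count was 3 without WT 1 and 2 without PGC-1alpha-mTg 5. Their mean, like that of the fibroblast markers, was lowest on PGC-1alpha-mTg 2 and 3. The part of fibroblast number in these values was not tested. Satellite cell markers had 5 of 8 lower at a median of -0.23, led by Cdh15 (-0.41 ± 0.05). That count was 3 without PGC-1alpha-mTg 4. The list shares Myf5 with the myogenic factors, whose falls in Myod1 and Myf6 are not in it. Nerve and Schwann cell markers had 2 of 7 lower, Ncam1 (-0.49 ± 0.06), which is also in the junction list, and Pmp22 (-0.23 ± 0.07), whose call was lost without 5 of the 10 arrays in turn (adjusted p up to 0.0711).

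Secreted and immune genes showed no common direction. Of 21 muscle-secreted factors, 4 were higher and 4 lower, and 7 were higher without PGC-1alpha-mTg 5. Il15, a cytokine made by muscle, read 7.09, 6.997, 7.04, 7.04 and 7.28 in WT and 8.24, 8.16, 8.12, 8.10 and 8.30 in PGC-1alpha-mTg. All transgenic arrays were higher, and it rose by 1.09 ± 0.06 (adjusted p = 4.7e-08). Apln, which encodes apelin, rose by 0.54 ± 0.09. Interferon response and antigen presentation genes had 6 higher and 0 lower of 26. That count was 2 without WT 2 or without PGC-1alpha-mTg 4, 3 without WT 3, WT 5 or PGC-1alpha-mTg 5, and 11 without PGC-1alpha-mTg 2 and 3 together, so it rested on single arrays, and 1 gene was lower without PGC-1alpha-mTg 5. Its mean was -0.00016 on PGC-1alpha-mTg 3 and 0.27 on PGC-1alpha-mTg 5. B2m, the light chain of MHC class I, rose by 0.33 ± 0.06. NF-kappa B pathway and cytokine genes had 3 higher and 3 lower of 23. These counts were 6 higher without PGC-1alpha-mTg 5, 1 lower without WT 1 or PGC-1alpha-mTg 2, and 1 higher and 1 lower without PGC-1alpha-mTg 2 and 3 together.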

How the data were processed

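Gene expression had been measured in gastrocnemius samples on Affymetrix mouse Gene 1.0 ST arrays, 1 array per sample, per the labels. The authors deposited log2 values, made by RMA (background correction, quantile normalization and 1 summary per probe set) and with the Partek software. RMA and Partek are named, without versions, per the submitters' processing notes. The log base was taken from RMA. The 10 arrays held values from 2.66 to 13.97, and 0 pairs were identical.

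Of 35556 probe sets, 21789 had 1 gene symbol, 1621 several and 12146 none in the platform table. Of those with 1 symbol, 21698 matched RefSeq (GRCm38.p6) by Entrez number. The probe set with the highest mean over the 10 arrays stood for the 999 genes with more than 1. Group means were fitted with limma 3.58.1 in R 4.3.3 (lmFit and eBayes), two-sided, with Benjamini-Hochberg adjustment over 19938 genes and calls at an adjusted p under 0.05. The samples were grouped by their titles. In simulated data with all 19938 genes, 50 genes were changed at each size, with the same spread in both groups. Of these, 6% were recovered at 0.2 on the log2 scale, 98% at 0.5 and 100% at 1 and 2. There were 10 false calls among 162. With so few genes changed the adjusted threshold is stricter than here, where 24.9% were called, so these rates do not carry over to this comparison.

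The comparison, its 62 gene lists (1438 symbols, 1321 measured) and the rule for named genes were chosen with earlier results of these data known. The rule takes Ppargc1a, the 20 largest rises and the 20 largest falls among called genes other than unnamed loci, per list up to 4 called members in each direction (2 by smallest p where none is called), every member of the PGC-1, ERR, PPAR and RXR families and every slow and fast contractile gene. Not every gene it takes is named, and genes named outside it were chosen after their values were seen. These are Nos1, Sirt3, Aadat, Atp1b1, Atp1b2, Car14, Car3, Car4, Cdh5, Ckm, Cox4i2, Cox6a2, Cox7a1, Cpt1a, Cs, Gatm, Got2, Idh2, Kyat1, Lpl, Ndufa2, Opa1, Pecam1, Sat1, Slc27a4, Slc6a8, Tek and Vwf. Lists were described by counts and medians beside those of all genes, with no set test. Alternatives were other scalings, probe set rules, moderation, array weights, a replicate block, all 20 arrays and arrays left out.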

Additional observations from a re-analysis of the deposited data

Results flagged for a closer look

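On 26 occasions a gene named above had 1 array far from the other 4 of its group, that is, a gap to the nearest array that took up most of the range of the group. With 456 groups examined, chance alone flags about 1 in 20 groups, so the total was about what chance alone would give. The arrays most often involved were PGC-1alpha-mTg 5, with 7 such values, and WT 5, with 5, while WT 3 and PGC-1alpha-mTg 3 had none. The values below are log2 levels, each with the range of the other 4 arrays of its group.

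Atp5g3 read 12.20 on PGC-1alpha-mTg 1, below the 12.33 to 12.37 of the others. For Gsr the level on PGC-1alpha-mTg 1 was 8.25, above 8.06 to 8.09. Lpl read 10.89 on PGC-1alpha-mTg 1, below the 11.25 to 11.35 of the others. For Neto2 the level on PGC-1alpha-mTg 1 was 5.23, above 4.43 to 4.63. Myod1 read 7.85 on PGC-1alpha-mTg 2, above the 7.39 to 7.47 of the others. Cbr2 read 8.49 on PGC-1alpha-mTg 4, above the 8.27 to 8.32 of the others. For Irs1 the level on PGC-1alpha-mTg 4 was 8.29, above 8.03 to 8.06. Tnni1 read 7.89 on PGC-1alpha-mTg 4, below the 8.66 to 8.92 of the others. Acadvl read 10.74 on PGC-1alpha-mTg 5, above the 10.49 to 10.54 of the others. For Bckdha the level on PGC-1alpha-mTg 5 was 10.02, above 9.83 to 9.85. Casq2 read 8.82 on PGC-1alpha-mTg 5, above the 8.39 to 8.51 of the others. For Cds1 the level on PGC-1alpha-mTg 5 was 7.26, above 6.88 to 6.95. Fgf1 read 8.86 on PGC-1alpha-mTg 5, above the 8.56 to 8.63 of the others. For Ldhd the level on PGC-1alpha-mTg 5 was 9.42, above 9.23 to 9.24. Sdhd read 11.79 on PGC-1alpha-mTg 5, above the 11.70 to 11.72 of the others. Sntb1 read 7.65 on WT 1, below the 8.14 to 8.30 of the others. For Tek the level on WT 1 was 8.55, above 8.32 to 8.37. Gpd1 read 12.24 on WT 2, above the 12.14 to 12.17 of the others. Car3 read 13.23 on WT 4, above the 13.15 to 13.16 of the others. For Ppard the level on WT 4 was 8.65, below 8.77 to 8.82. Pprc1 read 6.58 on WT 4, below the 6.73 to 6.79 of the others. Bnip3 read 11.31 on WT 5, above the 11.11 to 11.17 of the others. For Car2 the level on WT 5 was 7.18, above 6.86 to 6.95. Car4 read 8.12 on WT 5, above the 7.45 to 7.57 of the others. For Cbr2 the level on WT 5 was 9.49, below 9.90 to 9.97. Prkag3 read 10.39 on WT 5, below the 10.77 to 10.84 of the others.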

How the results depend on the processing

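The counts of called genes, 4967 in all, 2104 higher and 2863 lower, stayed within 1.5 times of these under every alternative run. In all, 5568 genes were called with all 20 arrays in the fit, 4837 with each array centred on its median, 5156 after quantile normalization over the 10 arrays, 4994 without the dimmest 40 percent of genes, 5006 with probe sets of a gene averaged, 5023 with trend and robust moderation and 6004 with array weights. With every probe set tested on its own, 5609 of 21789 probe sets were called. With 1 array left out the count was 4216 to 6147. Without PGC-1alpha-mTg 2 and 3 together it was 4024, with 2011 higher and 2013 lower, whereas 42.4% of called genes were higher with all arrays. Over the other settings that share was 38.2% to 44.9%, lowest with each array centred on its median. Ppargc1a was called higher under every alternative run that gives 1 value per gene, at 0.41 with its probe sets averaged, and its probe set 10529977 was called lower on its own. Of the 227 genes named, 216 to 226 kept their direction and their side of the threshold under each alternative. Signs turned only for genes that were not called. Idh2 turned to -0.016 with centring, -0.024 after quantile normalization, -0.030 with array weights and lay from -0.042 to 0.021 with 1 array left out. Vwf turned to 0.032 after quantile normalization, 0.011 without PGC-1alpha-mTg 2 and 3 and lay from -0.044 to 0.021 with 1 array left out, and Aadat to -0.00013 after quantile normalization. The cause was not tested. With the replicate number as a block (replicate block), 4740 genes were called, 2037 higher and 2703 lower, of which 4473 were among the 4967. The labels do not say whether the numbers pair the samples. The correlations of same-numbered arrays' deviations were -0.23 to 0.20, and 2 of 5 WT arrays correlated best with their own number. So few and weak correlations cannot decide whether there was a pairing. Under the block Actn2 lost its call, Cpt1a and Tnni1 gained one, and the lower counts became 5 for fast contractile genes, 2 for mitochondrial carriers, 5 for developmental contractile genes and 3 for muscle markers. The higher count under the block was 4 for lipogenic and sterol genes, 1 for the junction, 2 for macrophage markers and 0 for developmental contractile genes. Without PGC-1alpha-mTg 2 and 3, beside the counts given above, the lower counts were 5 for cytosolic tRNA synthetases, 1 for mitochondrial import, 2 for fusion, fission and mitophagy, 2 for satellite cell markers, 3 for the cell cycle, 3 for muscle markers, 5 for fast contractile genes, 2 for carriers and 1 for pyruvate entry. The higher counts there were 5 for the unfolded protein response, 4 for smooth muscle and pericytes, 2 for TGF-beta and BMP signalling, 2 for macrophages, 1 for lymphocytes, 1 for the dystrophin complex and 0 for developmental contractile genes. After quantile normalization the higher counts were 5 for insulin signalling and for the unfolded protein response, 4 for lipogenic genes and for smooth muscle and pericytes, 3 for matrix genes, 2 for glycolysis and macrophages, 1 for TGF-beta and BMP signalling and 0 for developmental contractile genes, and the lower counts were 1 for lipid droplets and 1 for smooth muscle and pericytes. With array weights 5 lipogenic, 2 glycolytic, 2 macrophage, 1 TGF-beta and 1 lymphocyte gene were higher. With trend and robust moderation 9 muscle markers and 1 smooth muscle marker were lower, 2 macrophage markers were higher and 0 developmental contractile genes were. Without the dimmest genes 5 lipogenic and 0 matrix genes were higher and 3 satellite cell markers lower, with centring 3 interferon and 0 developmental contractile genes were higher, and with all 20 arrays 1 TGF-beta gene, 1 lymphocyte marker and 0 developmental contractile genes were. Among called genes named, changes over 1.5 times came from quantile normalization for Myh1 (0.20), Cacna1s (0.10), Actn2 (0.033), Gpd1 (-0.29), Pkm (-0.35) and Bnip3l (-0.27), from averaging probe sets for Ppargc1a, Irs1 (-0.35), Kcnma1 (-0.14) and Tpm3 (-0.18), and for Nqo1 (-0.32) from leaving out PGC-1alpha-mTg 2 and 3, beside the change of Tnnc1 given above. The arrays have no depth, and 5 per group limit what small changes can be seen.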
